A study of Mus musculus and blank sample with 191 samples.

Results

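Ltf, Lcn2, C3, Muc1, Muc4, Wfdc2, Clu, Sprr2f and Padi1 are genes of the uterine epithelium that are known to be induced by estrogen or secreted into the uterine lumen. The 9 genes were chosen by name, and 8 of 9 had a row among the 19962 targets of the count table. Sprr2f had no row under that symbol and was not analysed here. The 8 genes were followed in 95 tissue regions of 189, which were the regions of the first of 2 plates. The regions came from mouse uteri profiled with GeoMx, which counts barcodes released from gene probes within a region outlined on a tissue section. Thra1PV/+ mice (PV, titled PV/N in the labels), of which there were 6, carry 1 copy of a mutant, dominant-negative thyroid hormone receptor alpha 1. The other 8 mice were wild type (WT, titled N/N). The design text of the submission counts 7 WT mice, whereas the sample labels name 8, and the labels were used.

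The PV mice were 2.4 to 6.3 months old and the WT mice 4.0 to 9.0 months, with the ages of the labels read as months. The mutation is in the germline, so that all tissues carry it, and the labels name no further allele or treatment in either genotype. Regions were taken from cores of endometrium on a tissue microarray and bore the label epithelium or stroma. PV mice gave 31 epithelium and 21 stroma regions, and WT mice 29 and 14. The labels do not separate surface epithelium from glands, and they give no oestrous stage, although the study describes matching its mice in metestrus. PV1 supplied 15 epithelium and 10 stroma regions, PV2 only 1 of each, and WT6 had no stroma region. Total counts were 61691 to 3130397 in a single region (median 653387). The sums of a mouse held 61690 to 13492531 counts in epithelium and 85336 to 5195248 in stroma, lowest in PV2. The ratio of epithelial to fibroblast markers matched the label in 60 of 60 epithelium and 35 of 35 stroma regions. It did so in 39 of 57 and 19 of 37 regions of the second plate, and those regions entered only an alternative.

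Estrogen acts on the uterus through the receptor Esr1 in epithelium and in stroma, and its rise before ovulation is known to turn on secretory genes in the luminal and glandular cells. Lactoferrin (Ltf) and lipocalin 2 (Lcn2) bind iron or iron carriers and limit bacterial growth. C3 is the central protein of complement, and Wfdc2 is a small protein of the whey acidic protein family. Muc1 and Muc4 are mucins anchored in the apical membrane. Clusterin (Clu) is a secreted chaperone, and Padi1 is an enzyme that converts arginine to citrulline in proteins. Because secretion follows the oestrous cycle, the spread between animals is given first.

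In GRCm38.p6, Ltf lies at chr9:111019292-111042766 on the plus strand and Lcn2 at chr2:32384637-32387739 on the minus strand. C3 lies at chr17:57203967-57228136 on the minus strand and Wfdc2 at chr2:164562715-164568510 on the plus strand. The 250 bases before the RefSeq start are shown for Ltf, Lcn2 and C3, which varied most between mice, and for Wfdc2, which varied least. Capitals mark GGTCA or its reverse TGACC, the half-site that Esr1 binds, and windows are written 5′ to 3′ on the strand of the gene.
Ltf, chr9:111019042-111019291, plus strand: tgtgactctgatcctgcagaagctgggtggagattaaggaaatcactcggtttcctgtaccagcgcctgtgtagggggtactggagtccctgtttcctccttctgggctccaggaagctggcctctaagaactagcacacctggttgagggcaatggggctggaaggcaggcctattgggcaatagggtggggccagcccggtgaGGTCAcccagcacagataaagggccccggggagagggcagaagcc
Lcn2, chr2:32387740-32387989, minus strand: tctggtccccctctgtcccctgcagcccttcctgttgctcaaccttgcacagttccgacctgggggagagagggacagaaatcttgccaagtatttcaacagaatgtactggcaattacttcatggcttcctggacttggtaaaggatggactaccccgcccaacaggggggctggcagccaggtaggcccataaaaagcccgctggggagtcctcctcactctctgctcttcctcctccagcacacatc
C3, chr17:57228137-57228386, minus strand: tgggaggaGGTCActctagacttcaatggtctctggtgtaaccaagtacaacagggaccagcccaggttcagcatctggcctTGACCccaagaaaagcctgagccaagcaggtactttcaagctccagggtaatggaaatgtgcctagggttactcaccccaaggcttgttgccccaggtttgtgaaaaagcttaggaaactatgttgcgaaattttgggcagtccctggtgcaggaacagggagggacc
Wfdc2, chr2:164562465-164562714, plus strand: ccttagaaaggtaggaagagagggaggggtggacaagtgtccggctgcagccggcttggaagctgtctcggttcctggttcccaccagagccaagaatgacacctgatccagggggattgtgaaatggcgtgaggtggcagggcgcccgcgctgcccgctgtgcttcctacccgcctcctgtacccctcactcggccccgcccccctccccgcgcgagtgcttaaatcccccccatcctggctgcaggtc

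The half-site stood 45 bases before the start of Ltf and 242 and 168 bases before that of C3. The windows shown for Lcn2 and Wfdc2 held none. RefSeq gives Wfdc2 a second start 1 base further on, and its window, not shown, ends in the half-site, 5 bases before that start. Of the 7 measured members with a window (Clu had none), 3 held the half-site on either strand in any of their windows, or 42.9%, with Wfdc2 counted through that second start alone. Over all 32851 RefSeq windows of the same length 35.2% held it. The full element, GGTCA and TGACC 3 bases apart, was in 0 of 7 and in 0.0639% of all windows. The sequence TGANTCA, read by AP-1 factors, was in 0 of 7 and in 6.75% of all windows. TATAAA was in 2 of 7 (Muc1 and Muc4) and in 7.59% of all windows. Sequences farther from the start were not searched.

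Levels in epithelium differed widely between mice. They are given as CPM, a count relative to the total of the library, of the summed regions of a mouse, scaled by TMM, and cannot be compared between genes because each gene has its own probe. Ltf was 2778 CPM in PV1, 45.1 in PV2, 2242 in PV3, 1926 in PV4, 773.8 in PV5 and 1635 in PV6. In WT mice it was 23.0 in WT1, 3331 in WT2, 6063 in WT3, 133 in WT4, 1323 in WT5, 3033 in WT6, 415 in WT7 and 1681 in WT8. WT1, PV2, WT4 and WT7 were the lowest mice and WT3 the highest, and the genotypes overlapped over most of their range.

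Lcn2 was 6895, 150 (PV2), 5667, 3952, 588 and 5207 CPM in PV1 to PV6. In WT1 to WT8 it was 15.2, 6648, 15100, 31.4, 6865, 1761, 61.1 and 2716 CPM. WT1, WT4 and WT7 stood at the bottom and WT3 at the top, as for Ltf, and the highest WT mouse exceeded the lowest 996-fold. C3 was 7669, 120 (PV2), 3250, 3052, 2085 and 3468 CPM in PV1 to PV6, and 24.3, 5622, 12170, 50.7, 5070, 4846, 115 and 1075 CPM in WT1 to WT8. WT1, WT4 and WT7 were again lowest, and the range over WT mice was 502-fold.

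The other members had narrower ranges over the 14 mice. Muc1 ran from 101 CPM in WT1 to 1550 in WT3, a 15.4-fold range. Muc4 ran from 20.6 in WT1 to 1302 in PV1, a 63.2-fold range. Clu ran from 15.0 in PV2 to 1601 in WT2, a 107-fold range, and Padi1 from 57.6 in WT1 to 2484 in PV6, a 43.1-fold range. The Clu value of PV2 was a count of 1 in its only region, the lowest value the count table holds. The next lowest mouse for Clu was PV5 at 31.0 CPM. Wfdc2 ran only from 290 in WT1 to 1005 in PV1, a 3.47-fold range. WT1 was thus the lowest mouse for 7 of 8 members.

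Set against all 14881 genes of the filtered table, 7 of the 8 members stood among the most variable. The standard deviation (SD) of log2 CPM over the 8 WT mice was 3.93 for Lcn2, 3.5 for C3 and 2.71 for Ltf, against a median of 0.31 over all genes. A larger SD than that of Lcn2 was found for 0 genes, than that of C3 for 2 and than that of Ltf for 5. Over the 6 PV mice the SD was 2.25 for Lcn2, 2.08 for C3 and 2.23 for Ltf, with 11, 22 and 13 genes above them, and a median gene had 0.512. For Wfdc2 the SD was 0.605 in WT and 0.45 in PV, and 8.64% and 61.0% of genes had a larger one. PV2 was the lowest PV mouse for Ltf, Lcn2 and C3. Without it Ltf ran 3.59-fold and C3 3.68-fold over the 5 remaining PV mice, and Lcn2 11.7-fold.

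Mice were compared with the spread between regions of a mouse as the error. A quasi-likelihood test of edgeR over the regions of the 8 WT mice called 7 of 8 members different between mice, where it called 37.1% of all genes. The adjusted p was 3.93e-11 for Lcn2, 9.78e-10 for Ltf, 6.27e-09 for C3, 3.58e-08 for Muc1, 5.13e-08 for Padi1, 0.000106 for Muc4 and 0.000335 for Clu. Wfdc2 was not called (adjusted p = 0.436). Over the 5 PV mice with at least 2 regions, edgeR again called 7 of 8 members, with a background of 43.4%. The adjusted p ran from 1.22e-05 for Padi1 to 0.0365 for Muc4, and Wfdc2 was at 0.423. Without PV1 only 3 members (Ltf, Clu and Padi1) were called among PV mice, and without PV4 5 were. The number of all genes called fell too, from 6460 of 14881 to 2898 without PV4. It was 2898 to 6421 over the 5 fits that left out a mouse. Regions of a mouse can share a core and a section, so these p-values speak of these mice and not of the genotypes.

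In numbers of variance, 95.3% of that of Lcn2 in WT epithelium lay between mice, 91.3% of that of C3 and 91.0% of that of Ltf, against 26.1% for the median gene. In PV epithelium the share was 91.3% for Ltf, where 0.0538% of genes had a larger one, but 62.6% for Lcn2, 58.2% for C3 and 24.8% for Muc4. For Wfdc2 the share was 4.05% in WT and 0% in PV epithelium. On the Q3 scale of single regions, Ltf was 1.90 to 32.6 in the 4 regions of WT1, 38.2 to 168 in the 3 of WT4 and 78.4 to 329 in the 5 of WT7. It was 509 to 1187 in the 6 of WT5 and 2706 to 4172 in the 4 of WT3. The regions of WT4 and WT7 thus overlapped, and those of WT1 lay under all of them.

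**Figure D1:**
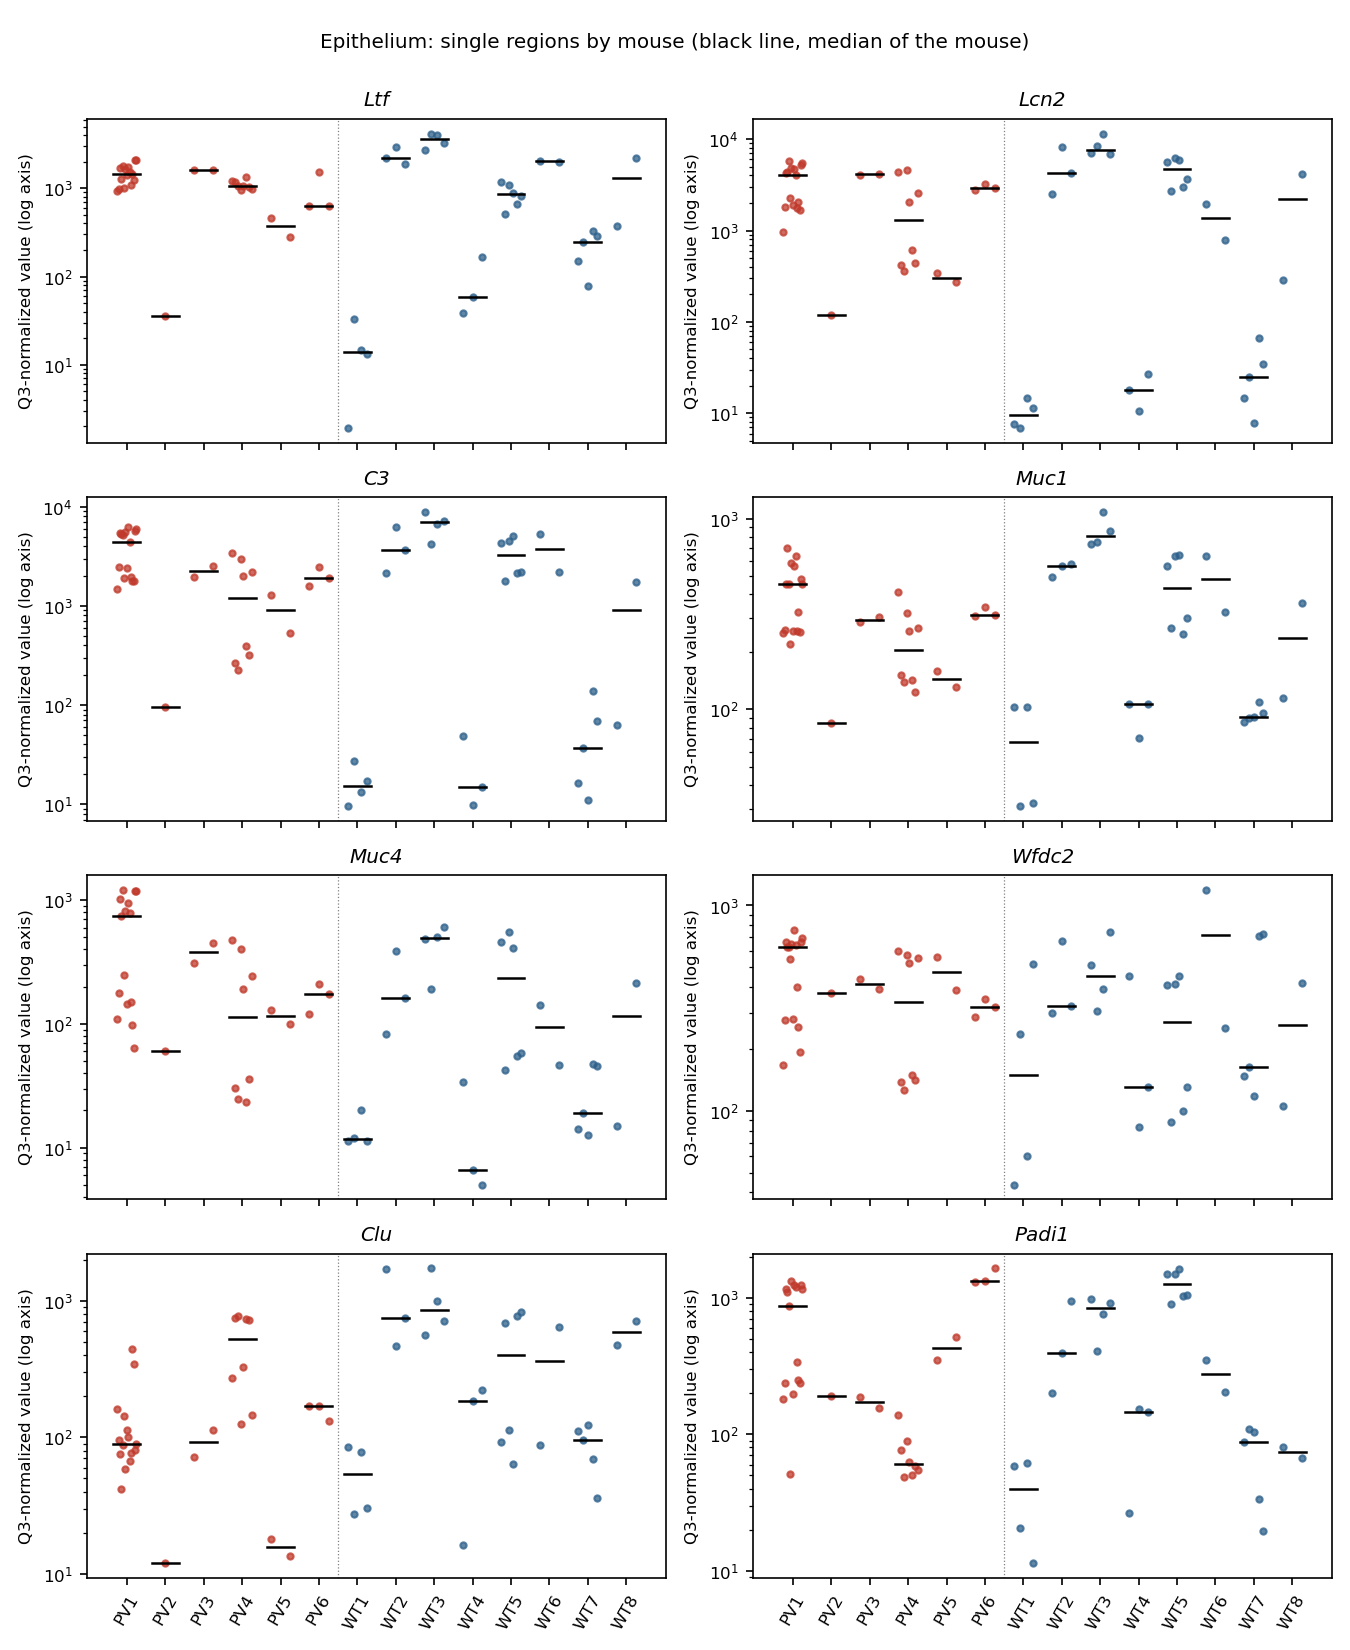
Q3-normalized values (log axis) of the 8 measured genes in single epithelium regions, by mouse, with PV mice in red, WT mice in blue and a black line at the median of each mouse. For Ltf, Lcn2 and C3 the regions of WT1, WT4 and WT7 sit below those of WT2, WT3 and WT5, while for Wfdc2 the regions of nearly all mice overlap.

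Over mice, Lcn2, C3, Muc1 and Muc4 followed Ltf most closely. Of the 28 pairs of members 10 had an r over 0.8, and the lowest r was 0.07, between Wfdc2 and Clu. Over the 14 epithelium sums, log2 CPM of Ltf correlated with that of C3 at r = 0.933 (rho = 0.864), of Muc1 at 0.921 (rho = 0.89) and of Lcn2 at 0.904 (rho = 0.798). The correlation was 0.82 with Muc4 (rho = 0.71), 0.719 with Clu (rho = 0.78), 0.588 with Padi1 (rho = 0.455) and 0.57 with Wfdc2 (rho = 0.538). Permutation p-values of r adjusted over these 7 relations were 7e-05 for Muc1, 0.000117 for C3 and for Lcn2, 0.000367 for Muc4, 0.00574 for Clu, 0.0313 for Padi1 and 0.0321 for Wfdc2. Those of rho were 0.00063 for C3 and for Muc1, 0.00189 for Lcn2, 0.0085 for Muc4, 0.00243 for Clu, 0.103 for Padi1 and 0.0593 for Wfdc2.

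Without PV2 and WT1, the mice farthest from the median of Ltf, r was 0.927 for C3, 0.918 for Lcn2, 0.888 for Muc1 and 0.778 for Muc4. It fell to 0.563 for Clu, 0.463 for Padi1 and 0.277 for Wfdc2. On log2 Q3 values of the mice with at least 2 epithelium regions, which kept WT1 but not PV2, r for Wfdc2 was 0.775. Within the 8 WT mice r was 0.946 for C3, 0.926 for Lcn2, 0.918 for Muc1, 0.928 for Clu and 0.881 for Muc4. Within the 6 PV mice it was 0.984, 0.939, 0.944, 0.806 and 0.883 for the same genes. Padi1 was at 0.745 in WT and 0.287 in PV, and the difference was not tested.

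Among 14880 genes, C3 had the third highest correlation with Ltf, Muc1 ranked 5 and Lcn2 10, while Muc4 ranked 67, Clu 324, Padi1 991 and Wfdc2 1123. The 5 genes outside the list with the highest r were Unc93b1 (0.954), Sftpd (0.942), Pyroxd1 (0.922), Tmsb4x (0.92) and Gjb2 (0.912). Over all genes 0.679% had an r over 0.8 with Ltf. Among 15 other measured genes known to be induced by estrogen in epithelium 4 did, or 26.7%, with a median r of 0.467. Of 13 further complement genes 3 did, and of the 9 proliferation genes 0 did. Cfb was in both the estrogen-induced and the complement list. The estrogen receptor Esr1 itself was at r = -0.197, and ran from 218 CPM in PV3 to 738 in PV5. Its SD on the log2 scale was 0.196 in WT and 0.607 in PV mice. Pgr, the progesterone receptor, was at -0.384, Greb1, an estrogen target, at 0.255, Mki67, a proliferation marker, at -0.121 and Igf1, a growth factor made in stroma, at -0.62.

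Other measures moved with Ltf over the same mice. The summed CPM of 12 columnar epithelium markers correlated with Ltf at 0.641 and that of 5 gland markers at -0.665. Log2 of the summed counts of a mouse, its depth, correlated at 0.545. The part of these measures in the result was not tested. Ltf and Lcn2 are also stored in neutrophil granules. Of 12 neutrophil markers 6 were in the filtered table, and their summed CPM in epithelium was 87.0 to 165 in PV and 112 to 149 in WT mice, with r = 0.123 to Ltf. For 3 of the 6 the median count was under 2 times the negative probe.

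**Figure D2:**
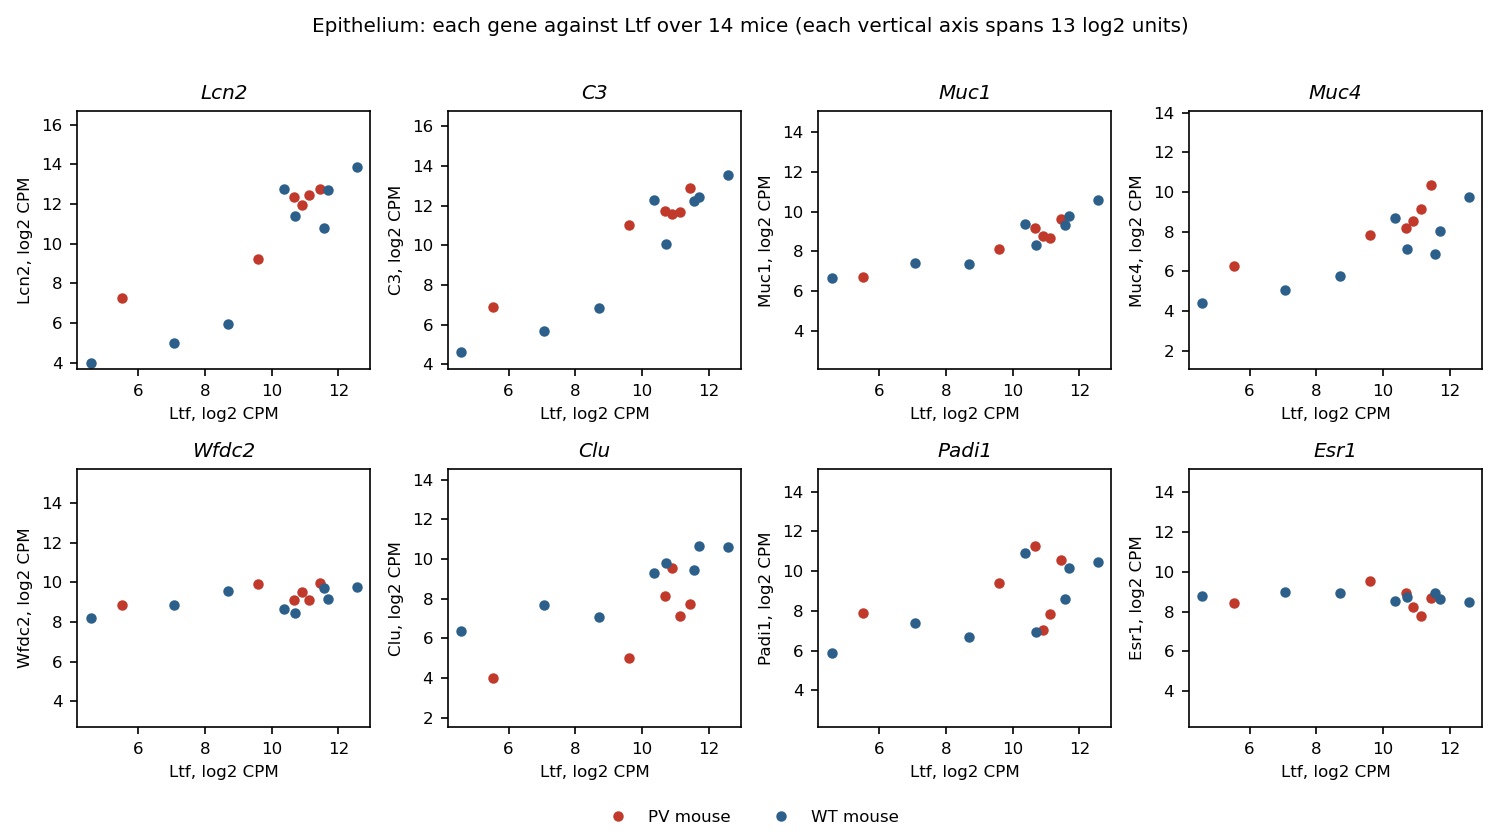
Log2 CPM of 7 members and of Esr1 against log2 CPM of Ltf in epithelium, 1 point per mouse (PV red, WT blue), with every vertical axis 13 log2 units long. Lcn2 and C3 climb steeply along Ltf (r = 0.904 and 0.933), Wfdc2 hardly moves, and Esr1 is flat (r = -0.197).

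Within mice the members did not all vary with Ltf. After each of 59 epithelium regions was centred on its mouse (13 mice), log2 Q3 values of Lcn2 and C3 correlated at 0.921, of Muc4 with C3 at 0.877 and of Muc4 with Wfdc2 at 0.808. Ltf correlated less with these genes, at 0.491 with Lcn2, 0.485 with C3, 0.453 with Wfdc2 and 0.342 with Muc4. With Muc1 Ltf was at 0.181. Clu ran the other way, at -0.793 with Wfdc2, -0.745 with Muc4 and -0.628 with C3, although over mice it rose with Ltf. These values describe regions that share mice and depth, and carry no test.

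Single regions of PV4 show the pattern. The region lowest in Muc4 had Q3 values of 23.5 for Muc4, 150 for Wfdc2, 610 for Lcn2, 738 for Clu and 1338 for Ltf. The region highest in Muc4 had 473 for Muc4, 600 for Wfdc2, 4392 for Lcn2, 273 for Clu and 1228 for Ltf. Ltf was thus alike in both, while Muc4 differed by more than an order of magnitude. In WT5 the lowest and highest regions had 42.1 and 556 for Muc4, 87.8 and 416 for Wfdc2, 688 and 113 for Clu, and 509 and 1102 for Ltf. In PV1 they had 63.3 and 1206 for Muc4, 194 and 626 for Wfdc2, 345 and 87.8 for Clu, and 1260 and 1789 for Ltf.

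Foxa2, a transcription factor of uterine glands, was 45.1 in the PV4 region lowest in Muc4 and 6.65 in the highest. In PV1 these were 45.7 and 14.1, and in WT5 31.3 and 6.49. Another WT5 region went the other way, with 287 for Foxa2 beside 460 for Muc4 and 92.6 for Clu. Over the 59 regions Foxa2 correlated with Clu at 0.528, with Wfdc2 at -0.689, with C3 at -0.673 and with Ltf at -0.171. Krt8, a keratin of simple epithelium, correlated with Wfdc2 at 0.846, with C3 at 0.856 and with Clu at -0.638, and Dcn, a fibroblast gene, with Muc4 at -0.592 and with Clu at 0.347. The part of the make-up of a region in these values was not tested.

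**Figure D3:**
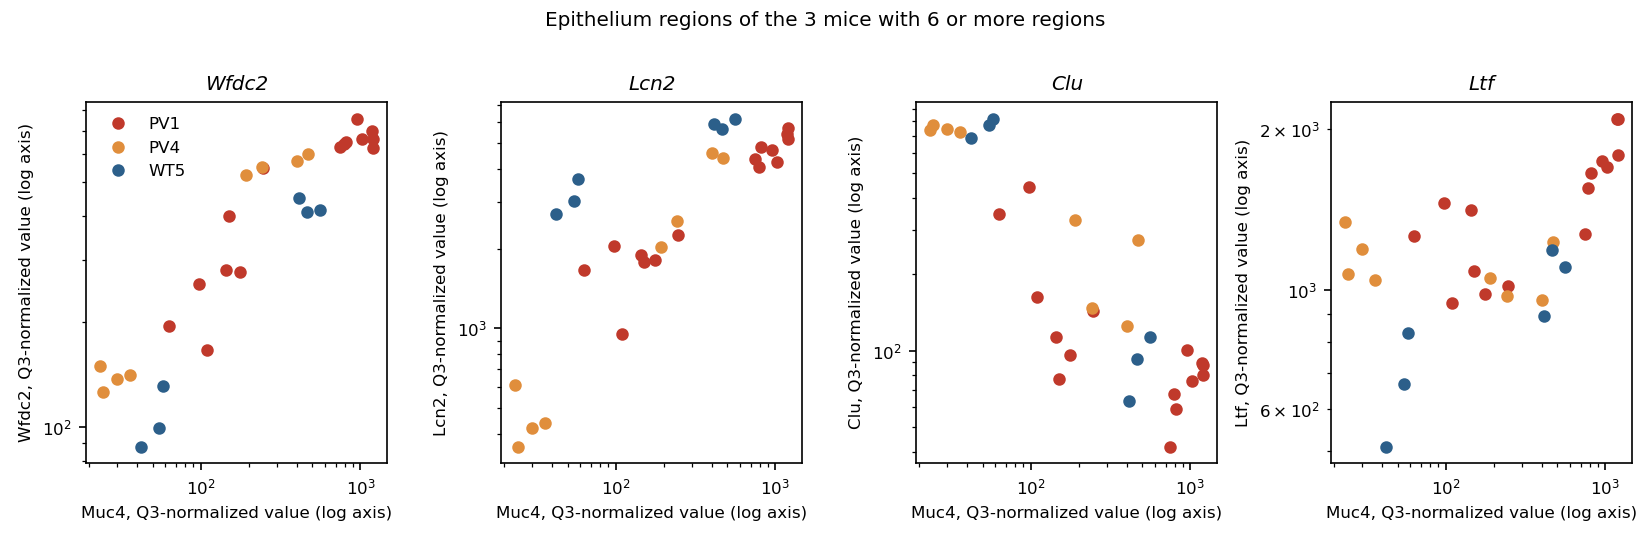
Q3-normalized values of Wfdc2, Lcn2, Clu and Ltf against those of Muc4 (both axes log) in the epithelium regions of the 3 mice with 6 or more of them, PV1 (15 regions), PV4 (8) and WT5 (6). Wfdc2 and Lcn2 climb with Muc4 in each mouse and Clu falls, while Ltf stays between 957 and 1338 in PV4. In WT5 (509 to 1187) and PV1 (944 to 2092) Ltf tends to be higher in the regions high in Muc4.

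All 8 measured members were higher in epithelium than in stroma. With 13 mice as blocks, edgeR called 8 of 8, where it called 28.4% of all genes higher in epithelium. The log2 fold change, epithelium minus stroma, was 4.31 ± 0.17 (SE) for Wfdc2 (adjusted p = 6.25e-13), 4.22 ± 0.47 for Ltf (3.00e-07), 3.98 ± 0.51 for Lcn2 (1.97e-06) and 3.93 ± 0.28 for Padi1 (7.29e-10). It was 3.53 ± 0.23 for Muc1 (2.20e-10), 3.11 ± 0.33 for Muc4 (1.43e-07) and 2.22 ± 0.38 for Clu (4.71e-05). C3 was at 3.91 ± 0.49. The median over the members was 3.92, near the 3.86 of the 12 columnar epithelium markers, and the median of all genes was -0.05. Leaving out each mouse in turn, all 8 were still called. With the second plate included all 8 were called too, at smaller sizes, from 1.38 ± 0.38 for Muc4 to 2.81 ± 0.65 for Lcn2, with Wfdc2 at 2.07 ± 0.49 and Ltf at 2.38 ± 0.52.

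Of the other genes known to be induced by estrogen in epithelium, 12 of 15 were called, 10 higher and 2 lower in epithelium. Pigr, the receptor that carries immunoglobulin A across epithelium, was at 3.70 ± 0.28, Gjb2, a gap junction protein, at 3.29 ± 0.31, Cfb, complement factor B, at 3.01 ± 0.28 and Aqp5, a water channel, at 2.94 ± 0.24. Padi2 and Padi4 were higher in epithelium by 2.95 ± 0.26 and 2.64 ± 0.29. Of 13 complement genes besides C3, 4 were higher and 8 lower in epithelium, with a median of -1.69. Cfb was counted here and among the estrogen-induced genes. Over all 14881 genes 4229 were called higher and 5151 lower in epithelium. Esr1 was higher in epithelium by 0.67 ± 0.13 and Greb1 by 1.03 ± 0.15, and Igf1 fell by 2.39 ± 0.23 (SE) on the log2 scale. Pgr and Mki67 were not called.

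In stroma, Ltf was 203, 30.5 (PV2), 108, 75.8, 17.6 and 62.5 CPM in PV1 to PV6. It was 71.2, 109, 111, 9.43, 69.3, 48.2 and 27.5 CPM in the WT mice other than WT6, in order. The stroma level of Ltf was 1.64% to 309% of the epithelium level of the same mouse, with a median of 4.82%. For Lcn2 the median was 4.94%, for C3 4.61%, for Wfdc2 4.36%, for Padi1 6.87%, for Muc1 8.12%, for Muc4 8.83% and for Clu 23.9%. The keratin Krt8 was at 5.46% and the epithelial adhesion gene Epcam at 8.42%, and the columnar markers together at 7.86%. Whether the members' counts in stroma came from epithelium in the region or from stromal cells was not tested.

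WT1 ran against the other mice. Its stroma exceeded its epithelium for Ltf (309%), Lcn2 (346%), C3 (360%) and Muc4 (112%), and for no other mouse was this so for these genes. Clu was higher in stroma only in PV5 (185%). In the 3 stroma regions of WT1 the Q3 value of Ltf was 2.58, 4.37 and 135, that of Lcn2 11.6, 12.0 and 82.8 and that of C3 10.3, 13.1 and 152. A single region thus carried the stroma level of these 3 genes in WT1. Muc4 was at 15.5, 13.1 and 20.2 in the same order, so no single one carried it. The region high in Ltf had 337 for the summed columnar markers, against 178 and 242 in the other two and 103.7 to 583.9 (median 254.8) over all stroma regions, and 3265 for the summed fibroblast markers, against 5965 and 4927.

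**Figure D4:**
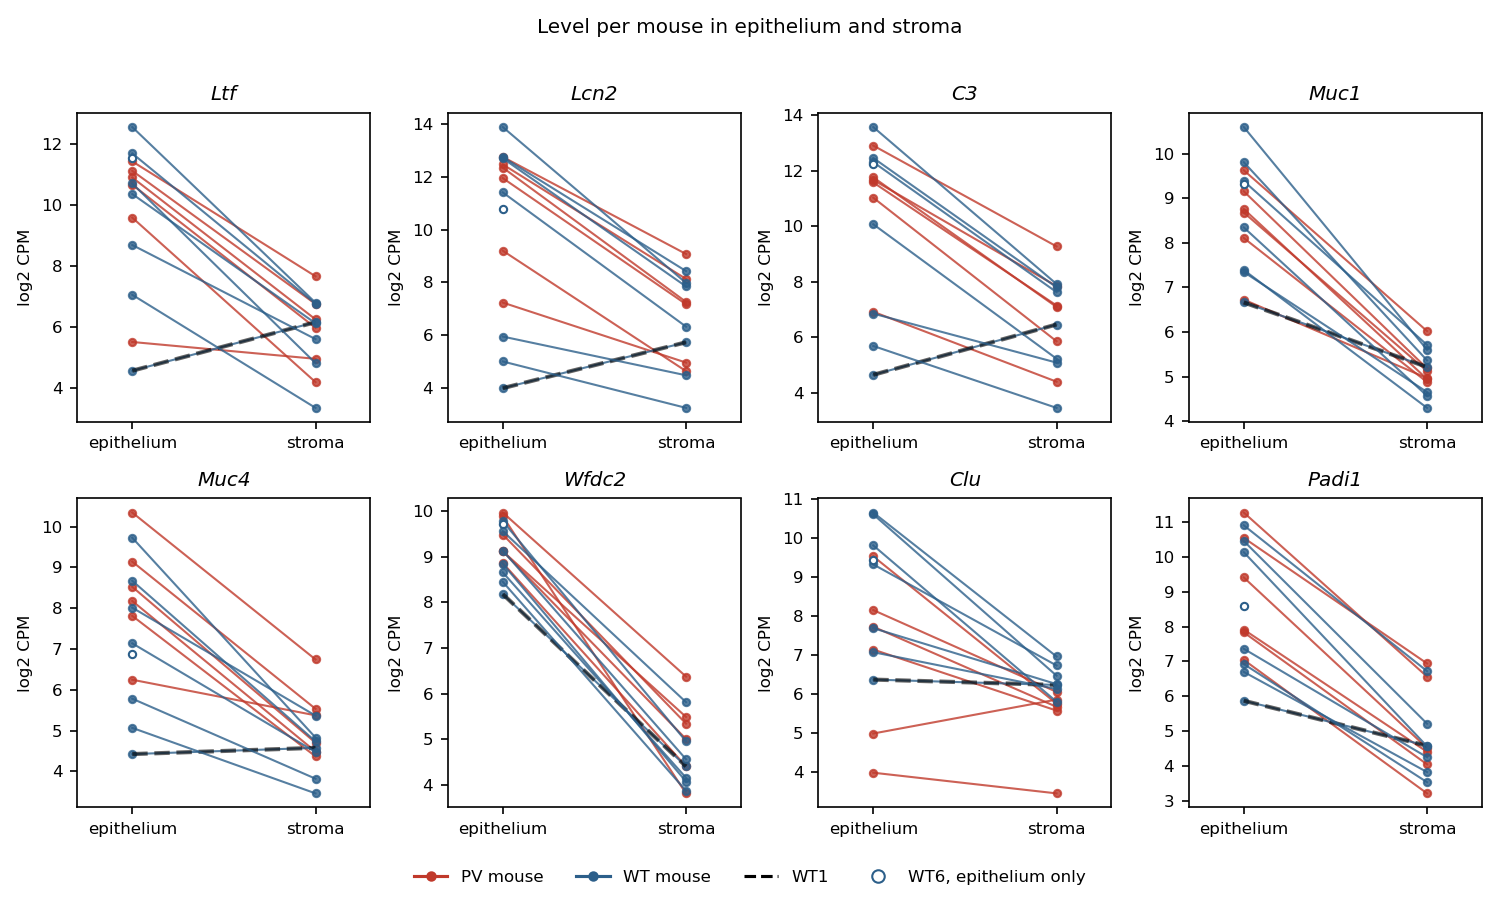
Log2 CPM of the 8 measured genes in epithelium and stroma, with a line joining the 2 values of a mouse (PV red, WT blue, WT1 also dashed black, WT6 with epithelium only as an open point). Nearly all lines fall, and the dashed line of WT1 climbs for Ltf, Lcn2 and C3.

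No member passed the adjusted test between PV and WT mice. In epithelium edgeR called 0 of 8 members and 0% of 14881 genes. At an unadjusted p under 0.05 there were 1223 genes, DESeq2 called 28 and limma on log2 Q3 values 0, none of them a member. The log2 fold change, PV minus WT, was -0.35 ± 0.85 (SE) for Ltf, -0.15 ± 1.11 for Lcn2, -0.15 ± 1.02 for C3 and -0.36 ± 0.54 for Muc1. It was 1.03 ± 0.71 for Muc4, 0.33 ± 0.28 for Wfdc2, 0.41 ± 0.79 for Padi1 and -1.55 ± 0.73 for Clu (p = 0.0479 and adjusted p = 0.605 in edgeR). With SEs of 0.85 to 1.11 for Ltf, Lcn2 and C3, changes of about 1 log2 unit in these genes could not be detected with these mice. The sign of Ltf, Lcn2 and C3 was not settled either, because the means of log2 CPM were higher in PV mice, by 0.22, 1.43 and 1.25.

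Clu in epithelium was 210, 15.0, 140, 735, 31.0 and 283 CPM in PV1 to PV6 and 81.9, 1601, 1549, 205, 638, 691, 134 and 893 CPM in WT1 to WT8. Only PV4 of the PV mice lay above the WT median, and the groups overlapped (exact permutation p = 0.0739, two-sided, 3003 divisions). The WT mice were older than the PV mice on the whole, and with age as a covariate the log2 fold change of Clu was -0.45 ± 0.76 (SE). The same fit gave 2.80 ± 0.72 for Muc4 (p = 0.0012, adjusted p = 0.169 in edgeR) and 1.83 ± 0.85 for Padi1 (p = 0.0444, adjusted p = 0.482 in edgeR). Muc4 was above the WT median in 5 of 6 PV mice, with 1302 CPM in PV1, 75.1 in PV2 and 224 to 565 in the other 4, against 20.6 to 849 in WT (exact permutation p = 0.14). Without PV1 the log2 fold change of Muc4 was 0.41 ± 0.71 (SE), and without WT3 1.72 ± 0.64. For the other 6 members the exact p was 0.234 to 0.885.

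In stroma edgeR called 0 of 8 members and 0% of genes, with 524 genes at an unadjusted p under 0.05, 2 called by DESeq2 and 0 by limma. The members had a median log2 fold change of 0.62, with 1.12 ± 0.37 (SE) for Muc4 (p = 0.00741), 0.78 ± 0.35 for Wfdc2 (p = 0.0367) and -0.69 ± 0.22 for Clu (p = 0.00615), all with an adjusted p of 1 in edgeR. Without PV1 these were 0.38 ± 0.30 for Muc4 and 0.34 ± 0.33 for Wfdc2. Clu in stroma was 50.2, 10.2, 46.9, 53.3, 57.2 and 65.7 CPM in PV1 to PV6. It was 74.4, 124, 87.9, 75.5, 105, 69.2 and 55.1 CPM in WT mice. All 6 PV mice lay under the WT median, and only WT8 fell within the PV range (exact permutation p = 0.00291 of a smallest possible 0.000583). That p is 1 of 16 such tests of single members and is not adjusted. With the second plate included, the difference of the means was -0.48 (exact permutation p = 0.574). With age as a covariate the log2 fold change of Clu was -0.49 ± 0.23 (p = 0.049, adjusted p = 0.633 in edgeR). That fit gave 2.57 ± 0.68 for C3 (p = 0.00134), 2.23 ± 0.76 for Lcn2 (p = 0.00841), 1.46 ± 0.48 for Ltf (p = 0.0065) and 1.46 ± 0.44 for Muc4 (p = 0.0038), with adjusted p-values in edgeR of 0.292 to 0.486.

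Taking regions as independent samples gave other calls. In epithelium an edgeR likelihood ratio test over regions called 3585 of 14881 genes and 1 of 8 members, Muc4 (1.40 ± 0.43, adjusted p = 0.01). In stroma it called 565 of 14881 genes and 4 of 8 members. These were Muc4 (1.62 ± 0.33), C3 (1.68 ± 0.47), Wfdc2 (1.25 ± 0.29) and Clu (-0.68 ± 0.16). PV1 alone supplied 10 of the 21 PV stroma regions. When limma was run over these regions and mouse was a random block, it called 0 members in either compartment.

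No member passed the test of whether the difference between compartments depended on genotype, where edgeR called 0 of 8 members and 0% of genes (1066 at an unadjusted p under 0.05, 1 by DESeq2, 0 by limma). The term, PV minus WT of epithelium minus stroma, was 0.33 ± 0.88 (SE) for Ltf, 0.83 ± 0.94 for Lcn2, 0.71 ± 0.90 for C3 and 0.87 ± 0.62 for Muc4. It was -0.50 ± 0.75 for Clu and -0.23 ± 0.33 for Wfdc2.

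Of the 15 other estrogen-induced genes 0 were called in either compartment, with a median log2 fold change of 0.27 in epithelium and 0.43 in stroma. In epithelium Esr1 was at -0.04 ± 0.23 (SE), Pgr at 0.39 ± 0.45, Greb1 at -0.15 ± 0.33, Mki67 at 1.11 ± 0.55 and Igf1 at -1.48 ± 0.54 (p = 0.0145, adjusted p = 0.537 in edgeR). Squamous markers, of which 3 of 12 were in the filtered table, summed to 60.1 to 320 CPM in PV epithelium and 31.8 to 113 in WT epithelium. For 2 of the 3 the median count was under 2 times the negative probe.

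**Figure D5:**
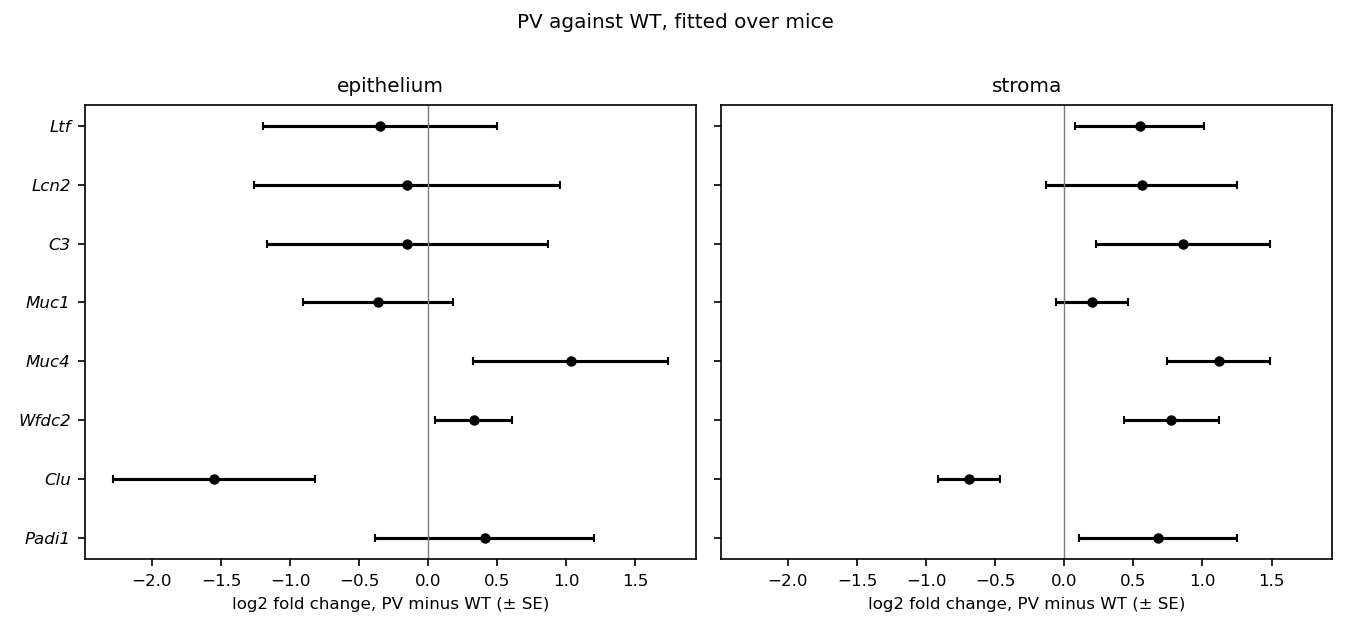
Log2 fold change of PV against WT (points, ± SE) for the 8 measured genes in epithelium (left) and stroma (right), from the fit over mice. The bars of Ltf, Lcn2 and C3 in epithelium cross 0 widely, and Clu lies below 0 in both compartments (-1.55 and -0.69).

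Few counts in epithelium were near background. There 1 of 29 WT regions had Ltf under 2 times the negative probe and 0 of 31 PV regions did, with medians of 147 and 413 times the negative probe. For Lcn2 2 WT and 0 PV epithelium regions were under that bound, for Muc4 1 and 0, and for Clu 0 and 1. C3, Muc1, Wfdc2 and Padi1 had 0 in both genotypes. In stroma 3 of 14 WT regions and 1 of 21 PV regions were under 2 times the negative probe for Ltf, 3 and 6 for Padi1, and 3 and 0 for Lcn2. For Wfdc2 these were 2 and 2, and for Muc4 1 and 0. The median stroma count of Muc4 was 3.32 times the negative probe in WT and 7.17 in PV, and that of Wfdc2 3.22 and 8.97. The stroma differences of Muc4 and Wfdc2 between genotypes were thus set against WT values close to background.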

How the data were processed

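GeoMx whole-transcriptome profiles of mouse uterine regions were analysed from the authors' tables, aligned to mm10 per the submitters' processing notes, which also name R 4.1.2. The deposited raw table holds expected counts (99.985% of target values whole, none under 1), which were rounded. The deposited normalized table holds a signal, the counts of a region scaled by its upper quartile (Q3) by the authors, and was used for single regions. The negative-probe row (0.000527% of the total) was left out. The 14881 genes of the authors' filtered table were tested. Counts of the first-plate regions were summed per mouse and compartment, because regions of a mouse are not replicates of a genotype. The sums, of 61690 to 13492531 counts in epithelium, limit precision most in PV2.

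Sums were tested with edgeR 4.0.16 (R 4.3.3), by the quasi-likelihood test with TMM scaling and Benjamini-Hochberg adjustment at 0.05. Levels are TMM-scaled CPM, with log2 values at a prior count of 2. The SE is the size of the log2 fold change over the square root of F. The mouse was a block between compartments, since both came from the same animal, and the deviations of the 2 sums of a mouse from their group means correlated at 0.152 to 0.521 (over 0.1 in 13 of 13 mice). Alternatives used DESeq2 1.42.0, limma 3.58.1 on log2(Q3 + 1), other scalings, filters and mice, age, both plates and single regions. The fits were tested on simulated data. Single members were compared by exact permutation tests, and 7 correlations with Ltf by permutation with scipy 1.17.1. Motifs were searched in RefSeq windows of GRCm38.p6.

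The genes and gene lists were chosen with earlier results of these data known. From the lists, genes called in a comparison were named, at most 4 a list by lowest p, with Esr1, Pgr, Greb1, Mki67 and Igf1 always and the 5 genes most like Ltf. The regions and marker genes shown within mice were chosen after their values were seen.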

Additional observations from a re-analysis of the deposited data

Results flagged for a closer look

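Dixon's criterion was applied to 32 sets of values, each of 1 member in the mice of 1 genotype and compartment. In 4 of the 32, 1 mouse stood apart, where chance gives about 1 in 20 for a single set. The sets share mice and the members correlate, so the count of 4 cannot be set against chance. In PV epithelium PV2 was lowest for Ltf (45.1 CPM) and for C3 (120 CPM). In PV stroma PV2 was lowest for Clu (10.2 CPM) and PV1 was highest for Muc1 (64.2 CPM). PV2 had 1 region in each compartment. It held 61690 counts in epithelium and 85336 in stroma, in both the fewest of any mouse, and its Clu value in stroma was a count of 1.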

How the results depend on the processing

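The difference between epithelium and stroma kept its direction and call for all 8 members under every alternative run, though with both plates its size fell to 1.38 to 2.81 on the log2 scale, and without the replicate block (the pairing by mouse) all 8 were called too. The second plate lowered the number of genes called there from 9380 to 5631. It also lowered the median share of variance between mice over the members, to 24.1% in PV and 31.6% in WT epithelium. The share of the median gene fell as well, from 36.4% to 16.1% in PV and from 26.1% to 14.9% in WT epithelium. WT mice differed in 7 members under every alternative, and PV mice in 3 to 7 (2898 to 6421 genes) when a mouse was left out. Where a value below changed, the cause was not tested.

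Between genotypes in epithelium, DESeq2 called 28 genes, the fit with age as a covariate called 10, the fit restricted to ages 4 to 6.3 months called 1, and leaving out a mouse 0 to 6. The likelihood ratio test over regions called 3585 of 14881 genes and 1 of 8 members, and limma over regions, with a random effect of mouse, 1 gene. In stroma DESeq2 called 2 genes, limma with pseudocount 10 1, leaving out a mouse 0 to 1 and limma over regions 2. The test over regions called 565 of 14881 genes and 4 of 8 members there. For the dependence on genotype of the compartments, DESeq2 called 1 gene.

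The sign in epithelium turned for several members. With limma at pseudocounts 1 and 10 it was 1.24 and 1.05 for C3, 1.35 and 1.13 for Lcn2, and 0.26 and 0.17 for Ltf. With both plates C3 was at 0.05 and Lcn2 at 0.04, and in mice with at least 2 regions at 0.1 and 0.09. With age as a covariate C3 was at 1.98, Lcn2 at 2.34, Ltf at 1.06 and Muc1 at 0.83, and in mice aged 4 to 6.3 months at 1.22, 1.5, 0.96 and 0.68. The test over regions gave 0.29 for C3, 0.04 for Lcn2 and 0.14 for Ltf, and limma over regions 1.66, 1.78, 0.79 and 0.05 for Muc1. Leaving out a mouse gave C3 -0.61 to 0.47, Lcn2 -0.42 to 0.55, Ltf -0.59 to 0.17, Muc1 -0.62 to 0.08 and Padi1 -0.22 to 0.9. In stroma it gave Lcn2 -0.06 to 0.98, Muc1 -0.12 to 0.33 and Padi1 -0.03 to 1.34.

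The dependence of the compartments on genotype turned without the replicate block, to -0.9 for C3, -0.8 for Lcn2, -0.72 for Ltf, -0.49 for Muc1, -0.09 for Muc4 and -0.28 for Padi1. With both plates these were -2.5, -2.56, -2.05, -1.83, -1.14 and -1.46. Clu was at 0.13 in mice with at least 2 regions. With limma at pseudocounts 1 and 10 Muc1 was at -0.004 and -0.04 and Wfdc2 at 0.13 and 0.23. Leaving out a mouse gave Ltf -0.26 to 0.73, Muc1 -0.21 to 0.45 and Padi1 -0.01 to 0.74. In the exact permutation tests with both plates, Ltf in epithelium was at -0.44, and 1 member in epithelium (Clu) and 2 in stroma (Muc4 and Wfdc2) had an exact p under 0.05.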

Other observations

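Age was set against the epithelium level of the 8 members within each genotype, a choice made after seeing the data, with 16 relations and permutation tests. In WT mice Muc1 had r = 0.722 (rho = 0.683) with age and Muc4 r = 0.718 (rho = 0.647), with permutation p = 0.0411 and 0.045, and without WT3 and WT4 r was 0.44 and 0.335. In PV mice Lcn2 had r = 0.809 (rho = 0.754, permutation p = 0.0823). The lowest adjusted p of r over the 16 relations was 0.255 and that of rho was 0.261, so none passed. Ages and oestrous stage cannot be told apart here, because no stage is labelled.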
